A study of Mus musculus with 6 samples.

Results

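The genes described here are 8 components and regulators of the alternative complement pathway: Cfb, C3, Cfd, Cfp, Cfi, Cd55, Cd59a and Cr1l. They were taken by gene symbol from a table of 17666 genes, and each of the 8 was measured. RNA sequencing was done on 6 samples of auditory nerve from young adult C57 mice aged 1.5 to 2.5 months. By their labels, 3 came from Cfb knockout mice (Cfb encodes complement factor B) and 3 from wildtype mice. Each sample was nerve tissue dissected from the cochleas of 1 mouse, with both cochleas (2 per sample) pooled. The sources used here do not give the targeted allele, its exons, its backcross or the sex of the mice. Because the samples are bulk tissue, fewer cells of a type and less RNA per cell cannot be told apart.

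Complement is a cascade of plasma and tissue proteins that tags surfaces for uptake and can perforate membranes. In the alternative pathway, C3 that has been activated at a low rate binds factor B, the protease factor D cleaves the bound factor B, and the resulting C3 convertase cleaves more C3, a loop that properdin (Cfp) stabilizes. Host cells restrain this loop with factor I (Cfi), which inactivates C3b, with the membrane proteins CD55 and Crry (Cr1l), which act on the convertase, and with CD59, which blocks the membrane attack complex at the end of the cascade.

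The deposited table holds normalized counts, which are gene counts scaled per sample and rounded by the authors. They summed to between 39599210 and 40918311 in knockout-labelled libraries and to between 38675077 and 41496282 in wildtype-labelled libraries. These totals are set by the scaling, so the depth of each sample is unknown. Defining markers of the nerve were abundant in each library: the myelin gene Mbp ranged from 144849 to 182193 normalized counts in knockout-labelled libraries and from 133466 to 264638 in wildtype-labelled libraries, and the neuronal gene Snap25 from 80047 to 100096 in knockout-labelled libraries and from 59190 to 125727 in wildtype-labelled libraries. The wildtype-labelled libraries differed more from one another, with a median SD of log2 values of 0.134 over all genes among knockout-labelled libraries and 0.299 among those labelled wildtype. Wildtype replicate 3 stood apart. The 8 red cell genes with values of their own summed to 2698 to 3878 normalized counts in knockout-labelled libraries, against 10641 and 11033 in wildtype replicates 1 and 2 and 33056 in wildtype replicate 3. A further red cell symbol, Hbb-bt, has the same values as Hbb-b2 in every library and was counted once with it. Where wildtype replicate 3 turns a direction or a call of a named complement gene, the value without it is given.

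Upstream sequences of 6 of the 8 genes were taken from RefSeq (GRCm38.p6); Cfb and Cfi had no entry. The windows of C3 and Cd59a are shown because the values of these 2 genes did not overlap between the labels. Each is the 250 bases before the annotated start, 5′ to 3′ on the gene's strand. The C3 window is chr17:57228137-57228386 on the minus strand, and the Cd59a window is chr2:104095551-104095800 on the plus strand.
C3: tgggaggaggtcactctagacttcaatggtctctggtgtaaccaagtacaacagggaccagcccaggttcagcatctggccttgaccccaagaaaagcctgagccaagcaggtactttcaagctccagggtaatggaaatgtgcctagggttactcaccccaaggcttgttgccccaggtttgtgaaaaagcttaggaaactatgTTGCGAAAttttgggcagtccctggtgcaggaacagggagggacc
Cd59a: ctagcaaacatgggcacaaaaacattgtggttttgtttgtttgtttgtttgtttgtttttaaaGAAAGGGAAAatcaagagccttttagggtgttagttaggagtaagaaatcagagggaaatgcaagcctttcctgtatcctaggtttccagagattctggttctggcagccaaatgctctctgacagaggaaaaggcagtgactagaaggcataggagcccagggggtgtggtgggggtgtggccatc

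Capitals mark the matches among 4 motifs searched on both strands: TTGCNNAA (C/EBP factors), TTCNNNGAA (STAT factors), GAAA with any 2 bases and a second GAAA after it (interferon regulatory factors), and GGGA, any base, TT, any base and CC in that order (NF-kB). The C3 window held TTGCGAAA at -45 to -38 from the start, and 9.56% of 32851 windows of the same length held that motif. The Cd59a window held GAAAGGGAAA at -187 to -178, a motif found in 2.98% of windows. Neither match overlapped another motif, and the windows of Cfd, Cfp, Cd55 and Cr1l held none of the 4. The NF-kB letters were in 0.98% of all windows and the STAT letters in 7.02%, and neither was in any of these 6. A match describes the letters only.

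Cfb, which encodes the protease subunit of the alternative C3 convertase, is the targeted gene, and its level ran opposite to the labels. Normalized counts of Cfb were 336, 351 and 376 in knockout-labelled libraries, against 55, 39 and 116 in wildtype-labelled libraries. Every knockout-labelled library was above every wildtype-labelled one, and wildtype replicate 3 was the highest of its label. The means were 354.3 ± 20.2 in knockout-labelled libraries and 70.0 ± 40.6 in wildtype-labelled libraries (SD, n = 3 each), a ratio of 5.06. The log2 difference was 2.47 (SE 0.38, 95% interval 1.57 to 3.38), which missed the threshold of 0.05 by limma (adjusted p = 0.107, Benjamini-Hochberg over all genes). With wildtype replicate 3 left out, the log2 difference was 2.91 (adjusted p = 0.00348 by limma), and adjusted p ranged from 0.00348 to 0.470 among the alternatives. Cfb had, in the authors' deposited table, a fold change of 5.08 and a false discovery rate of 1.8e-06.

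Cfb lies on chromosome 17 (34856374 to 34862518, minus strand, GRCm38) and has 2825 bases of exon in 17 blocks. A second annotated gene of the same strand, Gm20547, shares 2246 of these bases, or 79.5%. Gm20547 was not analysed here, and how reads in the shared exons were assigned is not given in the sources used here. Values summed per gene hold no exon positions, so whether the reads lie in the deleted part was not tested. The values do not tell an exchange of labels from a targeted allele that still gives transcript, and neither was tested. All directions below are between libraries as labelled.

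C3, the central protein of complement that all of its pathways cleave, rose 3.07-fold in knockout-labelled libraries. It had 2329, 1757 and 1927 normalized counts in knockout-labelled libraries, against 558, 757 and 643 in wildtype-labelled libraries. The labels did not overlap, and the gap between them was larger than the SD of either label. The means were 2004 ± 294 in knockout-labelled libraries and 652.7 ± 99.9 in wildtype-labelled libraries (SD, n = 3 each), with an SD of 14.7% of the mean in knockout-labelled libraries and 15.3% in wildtype-labelled libraries. The log2 difference was 1.62 (SE 0.16, 95% interval 1.24 to 2.00, adjusted p = 0.0297 by limma). Without wildtype replicate 3 the difference was 1.61 (adjusted p = 0.0158 by limma). The call was lost without any one of the knockout-labelled libraries or without wildtype replicate 2, with adjusted p between 0.0891 and 0.216 by limma, while the difference stayed between 1.51 and 1.73. It was also lost without the trend on the mean (adjusted p = 0.0719 by limma) and with the replicate block (adjusted p = 0.117 by limma). The authors' deposited table gave C3 a fold change of 3.07 and a false discovery rate of 7.82e-14. C3 lies on chromosome 17 (57203970 to 57228136, minus strand), with 5143 bases of exon.

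Cfd, the gene of the protease factor D that cleaves factor B, was near the detection limit. Its normalized counts were 1, 0 and 3 in knockout-labelled libraries, against 6, 3 and 0 in wildtype-labelled libraries. The labels overlapped (adjusted p = 0.751 by limma), and no fold is given at this level. Cfd lies on chromosome 10 (79890853 to 79892655, plus strand). Factor D is also called adipsin because fat cells make it in quantity. Some fat cell genes were low as well. Adipoq ranged from 0 to 2 in knockout-labelled libraries and from 0 to 12 in wildtype-labelled libraries. Plin1 ranged from 1 to 2 in knockout-labelled libraries and from 0 to 6 in wildtype-labelled libraries, and Retn from 1 to 3 and from 1 to 2. Others were higher. Fabp4 ranged from 0 to 15 in knockout-labelled libraries and from 6 to 47 in wildtype-labelled libraries, and Cidea from 33 to 72 and from 43 to 157. The summed adipocyte list (7 of 12 listed genes measured) came to 3250, 3074 and 3170 in knockout-labelled libraries, against 2899, 3250 and 9482 in wildtype-labelled libraries, of which the lipase genes Pnpla2 and Lipe, which other cells also express, made up most.

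Cfp, the gene of properdin, had 248, 309 and 283 normalized counts in knockout-labelled libraries, against 309, 366 and 237 in wildtype-labelled libraries. The labels overlapped, with the lowest and the highest values both under the wildtype label. The log2 difference was -0.10 (SE 0.21, 95% interval -0.58 to 0.38, adjusted p = 0.816 by limma), or 0.666-fold to 1.3-fold at the ends of the interval. Cfp lies on chromosome X (20925454 to 20931555, minus strand). Properdin is made by neutrophils and other myeloid cells. The 10 neutrophil and marrow genes summed to 51 to 758 in knockout-labelled libraries and to 828 to 2604 in wildtype-labelled libraries. Of these, 8 did not overlap and were lower in knockout-labelled libraries, 8 had an unadjusted p under 0.05 and 0 passed by limma. Over all genes, 14.9% did not overlap and were lower, and 20% had an unadjusted p under 0.05. Ltf and S100a9 were the most abundant of them. S100a9 had 70, 87 and 9 normalized counts in knockout-labelled libraries, against 223, 257 and 581 in wildtype-labelled libraries. Ltf overlapped, with 460, 61 and 1 in knockout-labelled libraries, against 103, 103 and 534 in wildtype-labelled libraries. The 460 of Ltf was in knockout replicate 1, the library whose sum was 758.

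**Figure D1:**
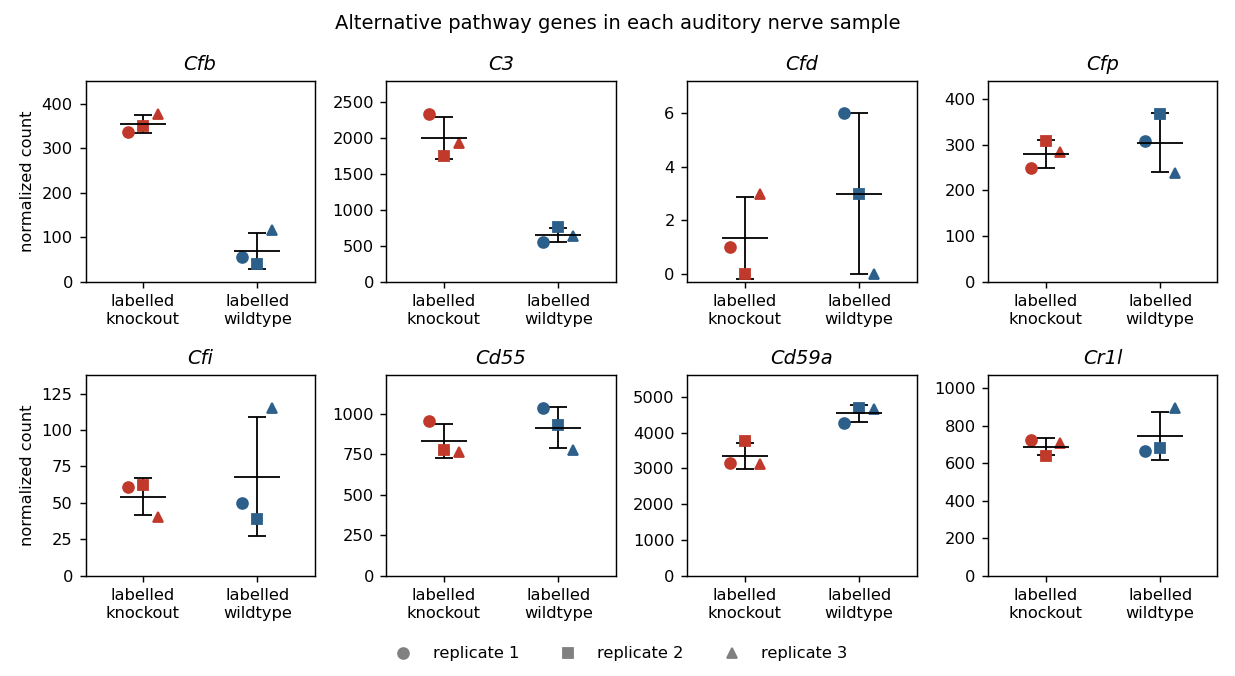
Normalized counts (vertical axes, linear, 1 panel per gene) of the 8 alternative pathway genes in each knockout-labelled library (left, red) and each wildtype-labelled library (right, blue). Symbols are replicates, bars the mean and SD of 3. Cfb and C3 are higher and Cd59a lower in every knockout-labelled library than in any wildtype-labelled one, and the other 5 genes overlap.

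The soluble inhibitor gene Cfi, whose protease product cuts C3b into inactive fragments, had 61, 62 and 40 normalized counts in knockout-labelled libraries, against 50, 39 and 115 in wildtype-labelled libraries. Its values overlapped, and wildtype replicate 3 had the highest. The log2 difference was -0.19 (SE 0.44, 95% interval -1.22 to 0.85, adjusted p = 0.843 by limma) and 0.27 without wildtype replicate 3. Cfi lies on chromosome 3 (129835884 to 129875332, plus strand). The SD over wildtype-labelled libraries was 60.4% of the mean for Cfi and 58.0% for Cfb, and replicate 3 was the highest for both.

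Cd59a, which encodes the membrane inhibitor of the attack complex, was lower in every knockout-labelled library. Its normalized counts were 3142, 3767 and 3130 in knockout-labelled libraries, against 4267, 4681 and 4665 in wildtype-labelled libraries. The labels did not overlap. The means were 3346 ± 364 in knockout-labelled libraries and 4538 ± 234 in wildtype-labelled libraries (SD, n = 3 each), a ratio of 0.737. The log2 difference of -0.44 (SE 0.11, 95% interval -0.71 to -0.17) did not pass by limma over all genes (adjusted p = 0.162, with 0.0782 to 0.485 over the alternatives). The authors' deposited table gave a fold change of -1.36 with a false discovery rate of 0.026, where a negative sign means lower in the knockout. The difference kept its sign without each of the 6 samples, between -0.53 and -0.40. After a correction for gene length it was -0.26 (adjusted p = 0.292 by limma). Cd59a lies on chromosome 2 (104095801 to 104115354, plus strand). The 8 peripheral glia markers, of which Mbp was the most abundant, summed to 439702 to 525566 in knockout-labelled libraries and to 554752 to 774865 in wildtype-labelled libraries. Which of these cells carry Cd59a, and their part in its difference, was not tested. Cd59b, the neighbouring copy of Cd59a, had 24, 24 and 27 normalized counts in knockout-labelled libraries, against 18, 17 and 43 in wildtype-labelled libraries, and reads in stretches common to both copies could be assigned to either.

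Cd55, whose protein speeds the decay of the convertase, had 954, 778 and 765 normalized counts in knockout-labelled libraries, against 1033, 930 and 778 in wildtype-labelled libraries. Its labels overlapped and its log2 difference was -0.13 (SE 0.16, 95% interval -0.50 to 0.24, adjusted p = 0.668 by limma). Cr1l, the gene of Crry, a rodent membrane protein that inhibits the C3 convertase, had 722, 636 and 708 normalized counts in knockout-labelled libraries, against 665, 679 and 893 in wildtype-labelled libraries. Its labels overlapped too, and its log2 difference was -0.10 (SE 0.15, 95% interval -0.47 to 0.26, adjusted p = 0.741 by limma). The Cr1l difference was 0.03 without wildtype replicate 3 and -0.34 after a correction for gene length, and passed in neither. As folds, the interval ran from 0.707 to 1.18 for Cd55 and from 0.724 to 1.2 for Cr1l, and was wider for Cfi, at 0.428 to 1.8. Both genes lie on chromosome 1, Cd55 at 130439027 to 130462744 and Cr1l at 195097382 to 195131586, each on the minus strand. Of the exonic bases of Cd55, 102 (2.1%) overlap the antisense gene Gm16083.

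By limma, 1 of the 8 genes, C3, passed over all genes, where 0.158% of the 17666 genes tested passed (0.102% higher and 0.0566% lower). At an unadjusted p under 0.05 there were 3 members, Cfb, C3 and Cd59a, and 20% of all genes. Without wildtype replicate 3 both Cfb and C3 passed, and so did 3.21% of all genes. Without wildtype replicate 1 only C3 did, with 0.493% of all genes, and without wildtype replicate 2 no member did, with 0.0113% of all genes. Leaving out any one of the knockout-labelled libraries left 0 genes past the threshold by limma, with 1797 to 2218 genes at an unadjusted p under 0.05. A false discovery rate under 0.05 in the authors' deposited table was given for 3 of the 7 members that had a rate, with Cfb and C3 higher and Cd59a lower. The same held for 7.39% of 15605 genes (4.14% higher and 3.25% lower). Values did not overlap between labels for these 3 of the 8 members, nor for 28.5% of all genes (13.6% higher and 14.9% lower), so separation alone was common in these libraries. The median log2 difference was -0.12 over the 8 members and 0.01 over all genes. For a single gene, the smallest two-sided p that an exact permutation of 3 against 3 libraries can give is 0.1.

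**Figure D2:**
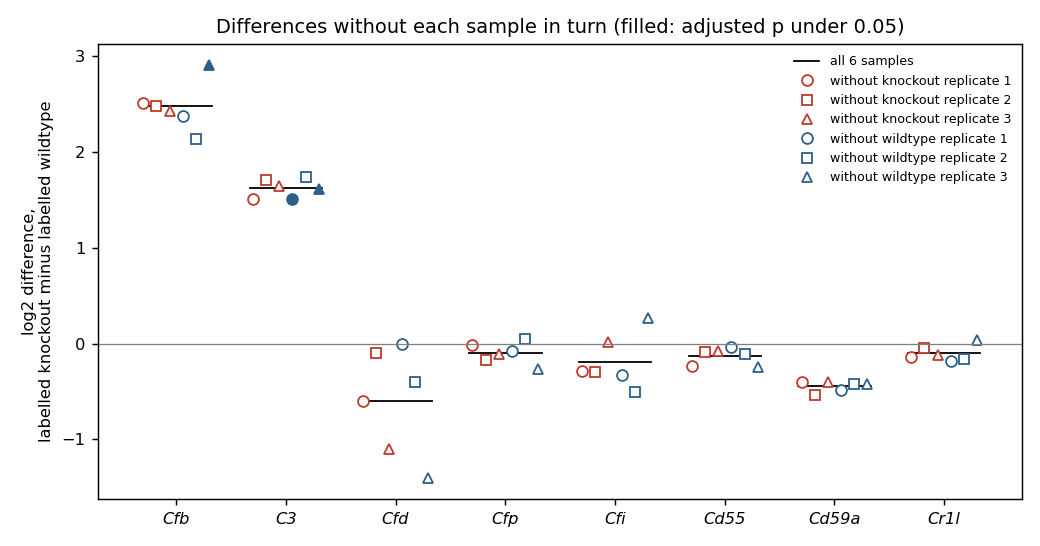
Log2 difference, labelled knockout minus labelled wildtype (vertical axis), of each gene with all 6 samples (black line) and without each sample in turn (symbols, filled where limma's adjusted p was under 0.05). Cfb moves between 2.13 and 2.91 and C3 between 1.51 and 1.73, and the other 6 genes lie near or below 0.

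Levels were compared between genes as normalized counts per kilobase of annotated exon. Cd59a was the most abundant member under both labels, with 1850 ± 201 per kilobase in knockout-labelled libraries and 2510 ± 130 in wildtype-labelled libraries (SD, n = 3 each). C3 stood at rank 2 of 8 with 390 ± 57.1 in knockout-labelled libraries, and at rank 4 with 127 ± 19.4 in wildtype-labelled libraries. Cfb stood at rank 5 with 125 ± 7.15 in knockout-labelled libraries and at rank 7 with 24.8 ± 14.4 in wildtype-labelled libraries. In knockout-labelled libraries the order was Cd59a, C3, Cd55, Cfp, Cfb, Cr1l, Cfi and Cfd, in which the neighbours Cd55 and Cfp overlapped. In wildtype-labelled libraries the order was Cd59a, Cd55, Cfp, C3, Cr1l, Cfi, Cfb and Cfd, in which Cd55 overlapped Cfp, Cfp overlapped C3, and Cfi overlapped Cfb. By the length of the longest transcript, C3 stood at rank 2 under the knockout label and rank 5 under the wildtype label, and Cfb at rank 6 under the knockout label and rank 7 under the wildtype label. Cr1l moved to rank 4 under the knockout label and to rank 3 under the wildtype label, where its longest transcript holds 3859 of its 10349 bases of exon.

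**Figure D3:**
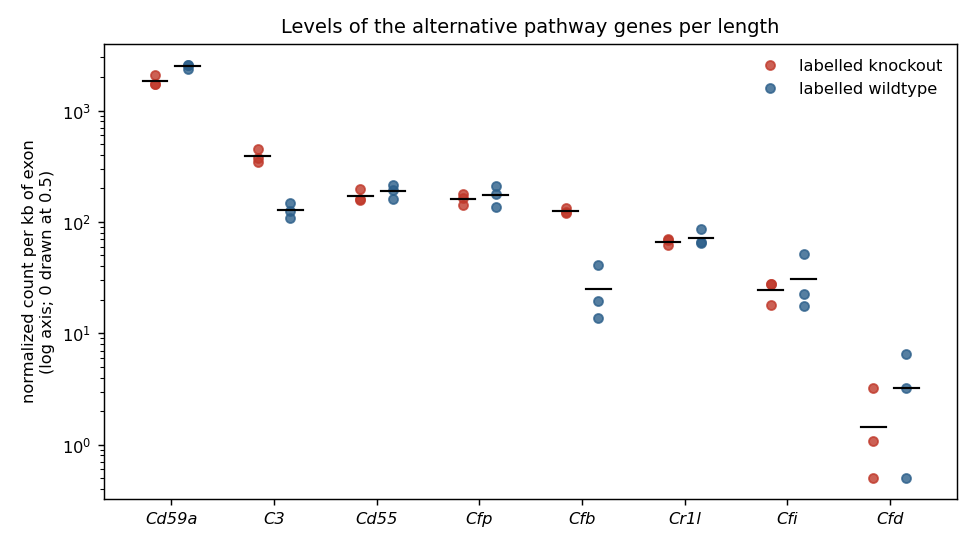
Normalized counts per kilobase of exon (vertical axis, log scale, 0 drawn at 0.5) for the 8 genes, with points for knockout-labelled libraries (red, left) and wildtype-labelled libraries (blue, right) and bars for means. Cd59a lies between 1730 and 2580, and C3 stands at rank 2 under the knockout label and at rank 4 under the wildtype label.

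The rest of the complement system was counted over 37 measured genes. By limma 1 of the 37 passed, C4b, and 36 did not, and 6 (16.2%) had an unadjusted p under 0.05, a share below the 20% of all genes. Of the 29 with a rate in the authors' deposited table, 3 were called (10.3%, with 7.39% over all genes), all higher in the knockout: C4b, Csmd2 and Itgam. The median log2 difference over the 37 was 0.07. Cr2 stands in the lists of both membrane regulators and receptors.

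Among 16 measured genes that start the classical and lectin routes, 1 passed by limma, C4b, which rose. An unadjusted p under 0.05 was given to 3 of the 16 and to 20% of all genes. Besides C4b these were C1qb (log2 difference -0.33) and Mbl2 (-1.16), both lower without overlap, and Mbl2 had at most 25 normalized counts. C4b encodes the protein that forms the classical C3 convertase together with C2. It had 4429, 3929 and 3982 normalized counts in knockout-labelled libraries, against 1856, 1669 and 1835 in wildtype-labelled libraries. Its log2 difference was 1.2 (SE 0.10, adjusted p = 0.0214 by limma), and adjusted p lay between 0.00593 and 0.216 over the alternatives. C4b has a close copy, C4a, with 59, 61 and 62 normalized counts in knockout-labelled libraries, against 47, 50 and 40 in wildtype-labelled libraries, and reads common to both could be assigned to either. C2, the classical counterpart of factor B and its neighbour on the chromosome, averaged 1418 ± 139 in knockout-labelled libraries and 1425 ± 711 in wildtype-labelled libraries (SD, n = 3 each). Wildtype replicate 3, at 2245, was its highest library, and the interval of its log2 difference ran from -0.63 to 0.82. That difference was 0.10 with all libraries and 0.48 without wildtype replicate 3 (adjusted p = 0.0653 by limma).

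Of the 5 measured soluble regulators other than Cfi, 0 passed by limma, 0 had an unadjusted p under 0.05 and 0 were called in the authors' deposited table. Clu, the gene of the fluid-phase attack complex inhibitor clusterin, was the most abundant at 48305 ± 4979 in knockout-labelled libraries and 57345 ± 30475 in wildtype-labelled libraries (SD, n = 3 each), of which replicate 3 had 92065. Its log2 difference was -0.13 with all libraries and 0.28 without wildtype replicate 3 (adjusted p = 0.321 by limma). Serping1, the inhibitor of the C1 proteases, averaged 4950 ± 816 in knockout-labelled libraries and 5438 ± 896 in wildtype-labelled libraries.

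Of 7 further membrane regulators, 0 passed by limma and 2, Csmd1 and Csmd2, had an unadjusted p under 0.05, as did 20% of all genes. All 7 log2 differences were above 0, with a median of 0.97. They ran from 0.07 for Cd59b to 1.28 for Csmd2. Among the larger ones, Csmd3 (0.985) overlapped between labels, and Cr2 (0.986) had at most 16 normalized counts. Csmd2, which encodes a large protein with complement control domains found in neurons, had 1289, 1682 and 1663 normalized counts in knockout-labelled libraries, against 1111, 536 and 423 in wildtype-labelled libraries (log2 difference 1.28, adjusted p = 0.164 by limma; false discovery rate 0.0284 in the authors' deposited table). Its relative Csmd1 had 3144, 4102 and 3839 in knockout-labelled libraries, against 3033, 1339 and 1626 in wildtype-labelled libraries (log2 difference 0.97, adjusted p = 0.176 by limma). Wildtype replicate 1 was the nearest to knockout-labelled libraries for both, and without it the differences were 1.69 for Csmd2 and 1.32 for Csmd1 (adjusted p = 0.0463 by limma for each). It was picked from these values, and leaving out the nearest library widens a difference. Without wildtype replicate 3 the differences were 0.99 for Csmd2 (adjusted p = 0.0853 by limma) and 0.865 for Csmd1 (adjusted p = 0.123 by limma). Over the alternatives, adjusted p by limma reached 0.485 for Csmd2 and 0.488 for Csmd1. The 8 neuron markers, led by Calb2 and Snap25, summed to 398058, 480081 and 430021 in knockout-labelled libraries, against 500725, 454522 and 290000 in wildtype-labelled libraries, and their part in these differences was not tested. Susd4, another sushi-domain regulator, averaged 8490 in knockout-labelled libraries and 7414 in wildtype-labelled libraries, a log2 difference of 0.22, which was -0.005 without wildtype replicate 3.

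Of 7 measured receptors for complement fragments, 0 passed by limma and 1 had an unadjusted p under 0.05. It was Itgam, the alpha subunit of complement receptor 3, which binds the inactivated C3b fragment. It had 539, 537 and 482 normalized counts in knockout-labelled libraries, against 325, 319 and 380 in wildtype-labelled libraries, with no overlap (log2 difference 0.61, adjusted p = 0.161 by limma; false discovery rate 0.00678 in the authors' deposited table). Without wildtype replicate 3 the Itgam difference was 0.69 (adjusted p = 0.0441 by limma). The partner subunit Itgb2 did not separate, with 208, 177 and 195 in knockout-labelled libraries, against 236, 156 and 240 in wildtype-labelled libraries (log2 difference -0.10, and 0.008 without wildtype replicate 3). C3ar1, the receptor of the C3a fragment, averaged 196 ± 31.4 in knockout-labelled libraries and 241.3 ± 36.9 in wildtype-labelled libraries (SD, n = 3 each). Of 7 terminal pathway genes, 3 were measured, of which 0 passed by limma and 0 had an unadjusted p under 0.05, and C8g and C7 were the most abundant. C8g had 62, 60 and 53 normalized counts in knockout-labelled libraries, against 54, 80 and 89 in wildtype-labelled libraries. C7 had 17, 20 and 32 in knockout-labelled libraries, against 9, 20 and 19 in wildtype-labelled libraries.

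**Figure D4:**
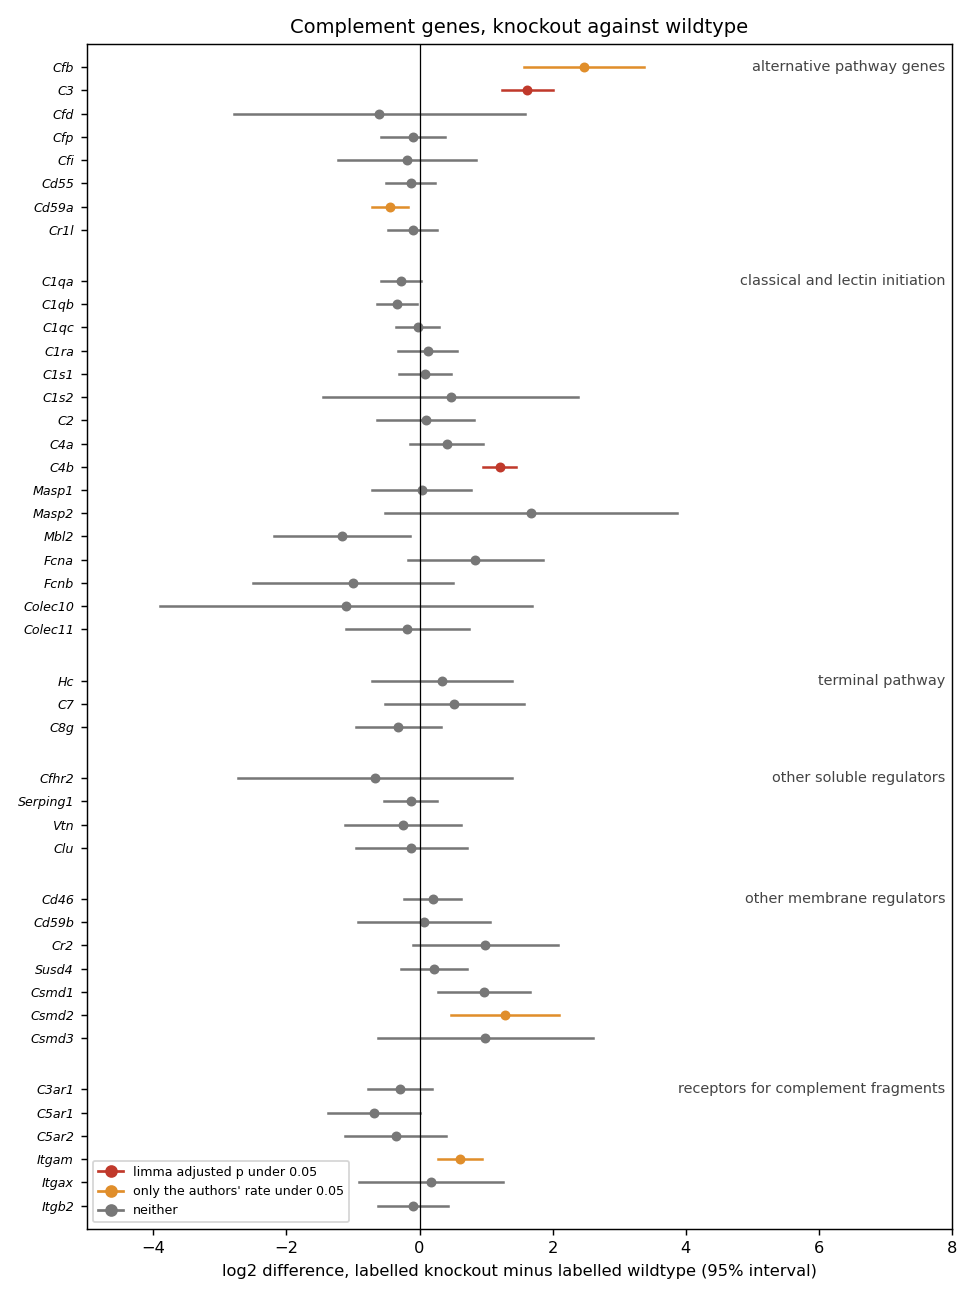
Log2 difference, labelled knockout minus labelled wildtype, with its 95% interval by limma (horizontal axis) for the 8 alternative pathway genes and 36 of the 37 other complement genes, grouped by role. Red marks C3 and C4b, which passed by limma, and orange marks genes called only in the authors' deposited table.

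Markers of cell types that could carry complement transcripts were summed per library. The 12 macrophage genes summed to 7713 to 8937 normalized counts in knockout-labelled libraries and to 7960 to 8421 in wildtype-labelled libraries. Of these, 0 passed by limma and 2, Cd68 and Tyrobp, both lower, had an unadjusted p under 0.05, where 20% of all genes did. The list was split: 6 of the 12 log2 differences were above 0. Without overlap, 1 was higher and 3 were lower, where 13.6% and 14.9% of all genes were. Csf1r and C1qa were the most abundant, with log2 differences of 0.165 and -0.28. Fibroblast genes summed to 65997 to 73773 in knockout-labelled libraries and to 74825 to 85397 in wildtype-labelled libraries, led by Dcn and Col1a2. Of these 8, 1 passed by limma, Pi16, which rose (log2 difference 2.14, adjusted p = 0.0297 by limma). Lum (-0.89) and Dcn (-0.42) were lower without overlap, as were 14.9% of all genes, and neither passed by limma. The authors' deposited table called 1 of the 8 higher and 1 lower, and the median log2 difference was -0.065. Hepatocyte genes were 4 of 8 measured. Ttr had 855, 759 and 974 normalized counts in knockout-labelled libraries, against 483, 803 and 632 in wildtype-labelled libraries. Its labels overlapped (log2 difference 0.455, adjusted p = 0.273 by limma). Apoa1, Apoa2 and Apoc3 each lay between 1 and 12 in knockout-labelled libraries and between 3 and 22 in wildtype-labelled libraries. Their log2 differences were below 0, with overlapping labels. Endothelial genes summed to 15907 to 19729 in knockout-labelled libraries and to 13601 to 14704 in wildtype-labelled libraries, with 5 of 8 not overlapping and higher, as were 13.6% of all genes. Emcn and Cdh5 were the most abundant of them. Emcn was lower, with overlapping labels (log2 difference -0.40), and Cdh5 was higher without overlap (0.40). Of the 8 log2 differences, 7 were above 0, among them that of Pecam1, which overlapped (0.014). By limma 0 passed and 5 had an unadjusted p under 0.05, where 20% of all genes did. The authors called 3 of the 8 higher in their deposited table, as they did 4.14% of all genes with a rate. Red cell genes, led by Hba-a1 and Hbb-b1, and neutrophil genes ran the other way from Cfb and C3, with medians of -2.41 and -2.79 on the log2 scale. All 8 distinct red cell genes had an unadjusted p under 0.05, where 20% of all genes did, and 0 passed by limma. All 8 were called lower in the authors' deposited table, as were 3.25% of all genes with a rate. The part of these cells in the differences of C3, Cfb and Cd59a was not tested.

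Cfb and C3 are on the same chromosome, with starts 22.3 Mb apart. Within 500 kb of the Cfb start, 59 genes were measured, of which 1, C4b, passed by limma and 4 (C4b, Tnxb, Prrc2a and Vars) were called in the authors' deposited table, all higher, where 7.39% of all genes were called. An unadjusted p under 0.05 was given to 10 of the 59, and to 20% of all genes. Among measured genes, the nearest start upstream was that of Zbtb12, with a log2 difference of 0.52 (adjusted p = 0.203 by limma), and the nearest downstream was that of Nelfe, with -0.18 (adjusted p = 0.588 by limma). Within 500 kb of the C3 start, 24 genes were measured. Of these, 0 passed by limma, 1 had an unadjusted p under 0.05 and 0 were called in the authors' deposited table. The nearest of them, Gpr108, had 2484, 2369 and 2495 normalized counts in knockout-labelled libraries, against 2453, 2443 and 3305 in wildtype-labelled libraries. The median log2 difference was -0.03 around Cfb and 0.05 around C3. Pi16 also lies on chromosome 17, with its start at 29.3 Mb, outside both windows. Genes of this chromosome beyond the windows were not counted.

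**Figure D5:**
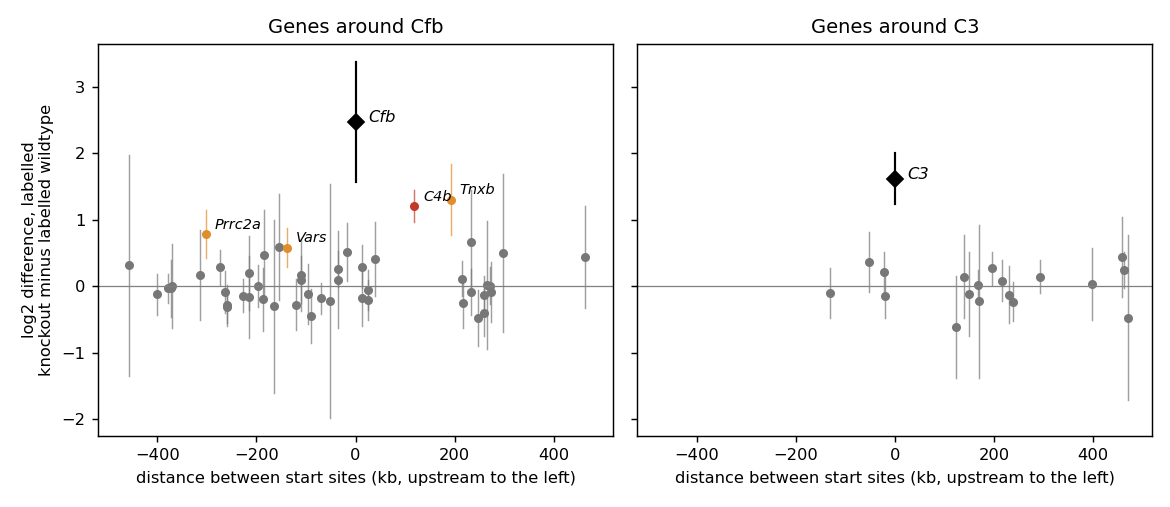
Log2 difference, labelled knockout minus labelled wildtype, with 95% intervals (vertical axis) of genes with a mean of at least 20 against the distance of their start from that of Cfb (left, 49 genes) or C3 (right, 18 genes), in kilobases. Red passed by limma, orange was called only in the authors' deposited table, and black diamonds are Cfb and C3, which lie above all of their neighbours.

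The genes whose values followed those of Cfb and C3 most closely were found by the root mean square difference between centred log2 values over the 6 samples, among 13601 genes with a mean of at least 50. For Cfb the closest was Npas2, the gene of a circadian transcription factor, at 0.26. Npas2 had 529, 472 and 486 normalized counts in knockout-labelled libraries, against 111, 82 and 206 in wildtype-labelled libraries, with the same high wildtype replicate 3. Dock2 (0.35), Dnah8 (0.39) and Ccdc187 (0.41) followed. Dnah8 lies on chromosome 17, as Cfb does, with its start at 30.6 Mb, and Npas2, Dock2 and Ccdc187 lie on other chromosomes. For C3 the closest were Xkr6 (0.18), Tspan11 (0.18), Adgrv1 (0.27) and C4b (0.28). Tspan11 had 1331, 932 and 1209 normalized counts in knockout-labelled libraries, against 418, 394 and 411 in wildtype-labelled libraries. The 6 samples fall into 2 labels, and a gene that separates them in the same way scores as alike.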

How the data were processed

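Auditory nerve RNA of 3 mice per label was sequenced. Per the labels' protocols, RNA was purified with the miRNeasy kit, degraded samples were excluded and TruSeq libraries were made. The submitters' processing notes list TopHat2, DESeq2, Partek and mm10, with no tool version and no role. The values are a score that the authors deposited, gene counts scaled and rounded, a reading taken from the values: median-of-ratios factors were 1.0038 to 1.0068, and 99.8% of 13938 genes had a deposited fold change that differed by 1% or less from the quotient of the 2 means. Raw reads per gene could not be had from these values, so limma was used and not a count model. The signed fold change and false discovery rate (q-value) are the authors' own, per the file headers, and 2061 genes have no rate. There were 0 unused sample columns.

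Limma 3.58.1 in R 4.3.3 was fitted to log2(value + 1) for the 17666 genes with a mean of at least 1 (0 removed), with label as the only term and a trend on the mean. Adjustment was by Benjamini and Hochberg over all genes, with a threshold of 0.05. The scale understates changes of low genes. On data simulated for this comparison over 17666 genes, 50 of 100 genes with a 2-fold change and 87 of 100 with a 4-fold change were called, and 1 of 138 calls was false. The changed genes all had a mean of at least 50, genes were drawn independently, and each had the same spread under both labels. The wider spread among wildtype-labelled libraries was not simulated, so these counts do not cover it, nor low genes such as Cfd. Libraries of 1 label differed by more than sampling noise (a chi-square of 24.3 or more per gene), so the 6 were counted separately. Positions, exon lengths and overlaps are from GENCODE M21 (GRCm38, the assembly of mm10), where 98.7% of genes had a length.

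The members, lists and tests were chosen with earlier results of these data known. All 8 members are named. In other complement lists, genes past the threshold by limma or by the authors' rate and the 2 most abundant are named, and in marker lists the 2 most abundant, but a few of them are left out of the text. C4a, Cd59b, Itgb2, Adipoq, Plin1, Pi16, Ttr, Tnxb, Prrc2a, Vars, the nearest genes and the upstream windows shown were chosen after their values were seen. So were C1qb, Mbl2, Lum, Cd68, Tyrobp, Pecam1, Retn, Fabp4, Cidea, Cr2 and Csmd3. Alternatives were other pseudocounts (0.5 and 5), a mean of at least 20, rescaled columns, other models of the spread, a length correction, a replicate block and leaving out each sample.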

Additional observations from a re-analysis of the deposited data

How the results depend on the processing

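Across 16 alternatives C3 kept a positive difference and passed in 10, and Cfb kept a positive difference and passed in 2. The log2 difference of C3 was 1.62 without the trend on the mean (adjusted p = 0.0719 by limma), 1.62 with the replicate block (adjusted p = 0.117) and 1.51 to 1.73 without single samples. Cfb passed with sample weights (2.73, adjusted p = 0.00884 by limma) and without wildtype replicate 3, in a range of 2.13 to 2.91 without single samples. Members called higher, 1 as reported, numbered 0 without the trend, 2 with sample weights, 0 with the block and 0 to 2 without single samples. No member was called lower by limma in any of the alternatives run. Over all genes, 28 calls became 16 without the trend (3183 genes at an unadjusted p under 0.05), 111 with sample weights, 7 with the block and 0 to 566 without single samples. The 0 calls came without each knockout-labelled library, where an unadjusted p under 0.05 was given to 2218, 1797 and 1892 genes, and the cause was not tested. Directions that reversed were those of genes that did not pass: Cfp (0.088 after the length correction, and -0.27 to 0.043 without single samples), Cfi (0.098 with sample weights, and -0.50 to 0.27 without single samples) and Cr1l (-0.18 to 0.033 without single samples). The length correction gave -0.26 for Cd59a and -0.34 for Cr1l. Cfd was left out by the filter at a mean of 20. Same-numbered samples had deviations that correlated at -0.065, 0.10 and 0.25 over 14214 genes. Between different numbers the values ran from -0.40 (knockout replicate 2, wildtype replicate 3) to 0.47 (knockout replicate 2, wildtype replicate 1). The numbers were therefore not taken as pairs, and the replicate block changed no call of a member other than C3. Depth is unknown, which limits what can be said of Cfd and Cfi.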
